A study of Mus musculus with 44 samples.

Results

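The response of wild-type (WT) macrophages to poly I:C, a synthetic double-stranded RNA, was read from 4 of the 44 RNA-seq libraries of the series, chosen by their labels: 2 labelled WT_Veh and 2 labelled WT_PolyIC. All 24940 listed genes were followed. The cells were bone marrow-derived macrophages (BMDMs) grown from the marrow of adult C57BL/6 mice, and the WT cells carried the genotype NCoR flox/flox, that is, floxed Ncor1 alleles with no Cre recombinase. Both groups were collected 6 h after vehicle or poly I:C and carry the same date stamp. The libraries used for comparison were 2 WT_IFNb libraries (interferon beta, 6 h, same genotype and date stamp), 2 NKO_Veh and 2 NKO_PolyIC libraries (NCoR flox/flox with LysMCre, a Cre driven by the lysozyme M promoter in myeloid cells, 6 h, same date stamp) and 8 libraries of 2 further tables (BMDMs of the genotype Wild type, 6 h), labelled Veh and KLA in the first and DMSO_Veh and DMSO_KLA, with the solvent DMSO in both groups, in the second. KLA (Kdo2 lipid A) is an agonist of Toll-like receptor 4 (TLR4). The labels do not say whether replicates were separate cultures or mice, so p-values measure only the spread between these libraries, which may be technical.

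Double-stranded RNA is made when viruses replicate. In macrophages it is met in endosomes by TLR3, which signals through the adaptor TRIF (Ticam1), and in the cytosol by MDA5 (Ifih1) and RIG-I (Ddx58), which signal through MAVS. Both routes lead to the kinases TBK1 and IKKε, to the transcription factor IRF3 and to NFκB, which together switch on interferon β; the secreted interferon then acts back through its receptor, JAK kinases and a complex of STAT proteins and IRF9 on a large set of antiviral genes.

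Levels are given as CPM, the count per 1000000 gene counts of the library after TMM scaling, replicate 1 before replicate 2, and compare a gene between libraries, not genes with each other, since CPM is not divided by transcript length. Changes are log2 fold changes ± SE of WT_PolyIC against WT_Veh from edgeR's quasi-likelihood fit. A gene was called higher or lower at a Benjamini-Hochberg adjusted p below 0.05 and a fold above 1.5. A gene with 0 counts in both libraries of a group is given as a lower bound on its fold, against 3 counts per library, and a gene with 1 to 3 counts in a group as a ratio with its counting interval.

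The 4 libraries held 10.9 M to 12.3 M counts in genes, and 3 counts in a library corresponded to 0.244 to 0.275 CPM before TMM scaling. Replicates correlated across genes with r = 0.9936 (vehicle) and r = 0.9942 (poly I:C) on the log2 scale; genes are not independent replicates. The vehicle replicates nevertheless stood further apart, with a chi-square of 5.873 per degree of freedom against 1.857 between the poly I:C replicates, and interferon-stimulated genes were higher in WT_Veh replicate 2, for example Irf7 at 40.9 and 97.6 CPM in the vehicle replicates. A fitted log2 fold change that moved by over 1.5-fold without a vehicle library is therefore also given without it, apart from genes with 0 to 3 counts in a group, which are given by their values, a bound or a ratio; the source of the difference was not tested. The summed level of 8 macrophage markers (Csf1r, Adgre1, Itgam, Cd68, Lyz2, Fcgr1, Mertk and Spi1) was 17180 to 17610 CPM under vehicle and 16940 to 17280 CPM under poly I:C, with no marker at 0. The sum holds opposite changes of single markers. Lyz2 read 9285 and 9126 CPM and then 7574 and 7235 CPM, while Fcgr1 read 192 and 298 CPM and then 1654 and 1683 CPM. Summed markers of B cells read 2.20 to 2.26 CPM under vehicle and 0.476 to 0.961 CPM under poly I:C, those of mast cells and basophils and of erythroid cells 0.547 CPM at most in these 4 libraries, and those of osteoclasts 113 to 121 CPM and 106 to 108 CPM. The T cell sum was 7.77 to 8.89 CPM under vehicle and 27.7 to 28.6 CPM under poly I:C, and the NK cell sum 0 to 0.0688 CPM and 33.3 to 33.8 CPM; Lck and Klrk1 made up most of both sums under poly I:C, and the part of other cell types in any result was not tested. Dendritic cell markers summed to 1.71 to 1.79 CPM and 15.7 to 18.5 CPM, neutrophil markers to 2.53 to 5.09 CPM and 8.05 to 10.1 CPM, and fibroblast markers to 95.5 to 106.5 CPM and 122 to 138 CPM. In such bulk RNA, fewer cells of a type and less RNA per cell cannot be told apart. Ncor1, the floxed gene, read 162 and 169 CPM under vehicle and 174 and 171 CPM under poly I:C and was not called.

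Under poly I:C somewhat more genes were called lower than higher in the main fit, but the large changes were mostly increases. Of 13407 genes tested, 2974 were called higher (22.2% of the genes tested) and 3357 lower (25% of the genes tested). The 2 directions parted with size: 2149 genes were called higher and 2159 lower by over 2-fold, 618 and 263 by over 8-fold, and 146 and 22 by over 64-fold. The genes called higher took 22.4% and 24% of all gene counts in the vehicle libraries and 58.1% and 58.8% in the poly I:C libraries, whereas the genes called lower took 21.4% and 20.8% and then 6.06% and 5.92%. The order of the 2 directions depended on the method: DESeq2 in place of edgeR called 3099 genes higher and 3006 lower. The split also depended on the scaling: higher calls were 47% of all calls with TMM, 49.6% with DESeq2 size factors and 20.3% with no scaling, where the median over all genes moved from -0.07 to -0.71 on the log2 scale. Protein-coding genes and non-coding RNAs were called at like shares, 22.3% and 21.3% higher and 25.4% and 20.2% lower.

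**Figure D1:**
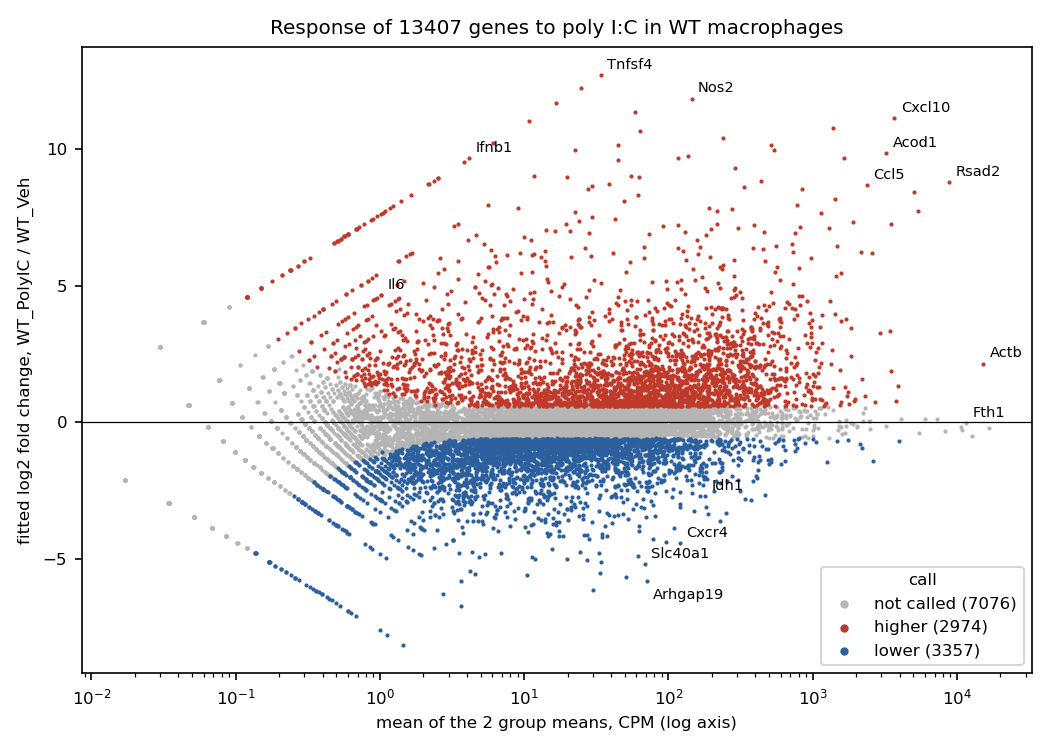
Fitted log2 fold change of WT_PolyIC against WT_Veh (y) by the mean of both group means in CPM (x, log axis) for the 13407 genes tested; each point is a gene, red called higher (2974), blue called lower (3357), grey not called (7076). Points in straight lines at the left are genes with few counts in a group, whose fitted change depends on the prior count; the chemokine Cxcl10 and the antiviral enzyme Rsad2 combine a high level with a large increase.

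The genes with the largest increases at 5 CPM or more were of different kinds, and several went from no detectable RNA to a clear signal in both poly I:C libraries. Tnfsf4, which encodes the T cell costimulatory ligand OX40L, had 0 counts in both vehicle libraries and read 68.5 and 67.3 CPM under poly I:C, at least 330.1-fold higher. Mir155hg, the host transcript of the microRNA miR-155, was also at 0 under vehicle and read 45.5 and 53.2 CPM, at least 239.8-fold higher. Klrk1, the receptor NKG2D best known from NK and T cells, went from 0 counts to 33.1 and 33.8 CPM, at least 162-fold higher, while the NK cell genes Ncr1, Gzma and Prf1 stayed at or near 0. In none of these 3 genes did a vehicle library hold a single count. Heatr9 and Ptgs2os2 were at 0 under vehicle too, and rose at least 105-fold and 59.0-fold. Ptgs2os2 is named as an opposite-strand gene of Ptgs2, and whether their transcripts overlap was not examined. While the study's methods speak of strand-specific reads, the headers name no strand option, so it is unsure whether reads of opposite strands were told apart. Nos2, the inducible nitric oxide synthase, read 0 and 0.137 CPM and then 283 and 296 CPM, a ratio of 4233-fold (95% counting interval 1171 to 34970). The chemokine Ccl12 rose from 0 and 0.0684 CPM to 119 and 117 CPM, a ratio of 3448-fold (95% counting interval 618 to 136200), and the serine protease inhibitor gene Serpina3f from 0.0688 and 0.0684 CPM to 85.7 and 93.5 CPM. The transmembrane adaptor gene Scimp rose from 0 and 0.0684 CPM to 40.8 and 48.5 CPM. Lipg, endothelial lipase, rose from 0.275 and 0.41 CPM to 468 and 484 CPM (log2 fold change 10.40 ± 0.14, adjusted p = 8.61e-49). Cd69, an early activation antigen that holds cells in tissues, rose from 0.963 and 1.16 CPM to 1031 and 1125 CPM (log2 fold change 9.97 ± 0.16, adjusted p = 1.3e-22). The vehicle and poly I:C libraries lay far apart for every gene named here.

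Divided by transcript length, the most abundant RNAs under poly I:C were partly long-standing macrophage RNAs and partly induced ones. Among the 10 genes with the highest mean TPM (the count divided by the listed transcript length and scaled to the library, computed here) under poly I:C, Actb, Fth1, Lyz2, B2m, Ctsd, Psap and Tmsb4x were already abundant under vehicle, whereas Ccl5, Cxcl10 and Rsad2 were not. Ccl5 stood at 15.1 and 111 TPM under vehicle and 16850 and 16934 TPM under poly I:C, Cxcl10 at 3.62 and 13.7 TPM and then 12437 and 12784 TPM, and Rsad2 at 22.1 and 38.6 TPM and then 8591 and 8851 TPM. For comparison, the iron store gene Fth1 stood at 36716 and 35413 TPM under vehicle and 23774 and 22215 TPM under poly I:C on the same scale. TPM values carry no TMM scaling, so they order genes within a library and do not measure change between groups. The fitted log2 fold change of Fth1 was -0.02. The β-actin gene Actb, often taken as a reference, was itself called higher in CPM (2.15 ± 0.05 on the log2 scale), while Fth1, Lyz2, Ctsd, Psap and Tmsb4x were not called; Ctsd was called lower without WT_Veh replicate 2 (-0.59).

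The largest decreases fell in genes of quite different kinds. Tcp11l2 went from 64.8 and 54.4 CPM to 0.952 and 0.721 CPM, a log2 change of -6.14 ± 0.20 (adjusted p = 2.24e-36). Arhgap19, a GTPase-activating protein, went from 136 and 142 CPM to 2.74 and 2.28 CPM (-5.78 ± 0.12, adjusted p = 6.7e-46). Slc40a1, which encodes ferroportin, the iron exporter of the macrophage, went from 144 and 124 CPM to 4.28 and 3.00 CPM (-5.20 ± 0.13, adjusted p = 1.38e-36). Each of these lost almost all of its signal within 6 h in both poly I:C libraries. Angptl4, a secreted inhibitor of lipoprotein lipase, changed by -5.59 ± 0.30, Engase by -5.12 ± 0.16, Fam214a by -5.51 ± 0.19, 6430548M08Rik by -5.03 ± 0.17, 1810011H11Rik by -4.99 ± 0.25 and Rasgrp3, a Ras exchange factor, by -4.99 ± 0.21 on the log2 scale. Zfyve28 changed by -5.66 ± 0.15, or by -5.12 or -6.54 with WT_PolyIC replicate 1 or replicate 2 left out. In Dkk2, Pgbd5, 9630028I04Rik, Nat8l and Frat1 the poly I:C libraries held 1 to 3 counts together, and the ratio of vehicle over poly I:C was 122-fold (95% counting interval 21.7 to 4849) for the Wnt pathway gene Dkk2 and 49.5-fold (95% counting interval 16.7 to 242) for Nat8l, which makes N-acetylaspartate.

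The promoters of 6 induced genes are shown because they hold the binding motifs of the transcription factors this pathway is known for, the interferon-stimulated response element (ISRE, searched as GAAANNGAAA, bound by IRF and STAT-IRF9 complexes) and the NFκB motif (searched as GGGANNTTCC), on either strand. Each sequence is the 250 bases before the transcription start in RefSeq's annotation of GRCm38.p6, 5′ to 3′ along the gene, in lower case with the matches in capitals. The windows were Cxcl10 (chr5:92348890-92349139, minus strand), with an ISRE and then an NFκB match, Gbp5 (chr3:142496684-142496933, plus strand), with the same order, Isg15 (chr4:156200819-156201068, minus strand), with 3 overlapping ISRE matches, Rsad2 (chr12:26456453-26456702, minus strand), with an ISRE, and Ifnb1 (chr4:88522795-88523044, minus strand) and Il6 (chr5:30012864-30013113, plus strand), each with an NFκB match.
Cxcl10: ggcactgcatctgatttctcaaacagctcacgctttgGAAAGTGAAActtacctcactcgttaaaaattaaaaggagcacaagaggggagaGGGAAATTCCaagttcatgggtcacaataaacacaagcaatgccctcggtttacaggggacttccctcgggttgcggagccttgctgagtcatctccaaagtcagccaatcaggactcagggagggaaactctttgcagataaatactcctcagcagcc
Gbp5: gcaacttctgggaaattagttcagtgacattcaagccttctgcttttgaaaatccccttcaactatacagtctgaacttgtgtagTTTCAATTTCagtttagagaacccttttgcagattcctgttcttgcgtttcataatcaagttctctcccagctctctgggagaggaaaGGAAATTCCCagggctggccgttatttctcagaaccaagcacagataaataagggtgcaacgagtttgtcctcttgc
Isg15: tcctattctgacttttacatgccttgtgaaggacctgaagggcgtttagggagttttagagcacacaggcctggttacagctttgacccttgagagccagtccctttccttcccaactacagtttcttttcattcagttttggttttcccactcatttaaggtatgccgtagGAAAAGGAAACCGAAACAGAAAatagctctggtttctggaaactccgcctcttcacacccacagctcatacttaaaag
Rsad2: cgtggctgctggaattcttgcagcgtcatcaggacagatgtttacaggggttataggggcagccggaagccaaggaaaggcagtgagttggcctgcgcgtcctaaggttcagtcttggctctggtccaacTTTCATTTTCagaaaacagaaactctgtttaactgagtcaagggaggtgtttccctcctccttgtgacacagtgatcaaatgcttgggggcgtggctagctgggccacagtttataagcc
Ifnb1: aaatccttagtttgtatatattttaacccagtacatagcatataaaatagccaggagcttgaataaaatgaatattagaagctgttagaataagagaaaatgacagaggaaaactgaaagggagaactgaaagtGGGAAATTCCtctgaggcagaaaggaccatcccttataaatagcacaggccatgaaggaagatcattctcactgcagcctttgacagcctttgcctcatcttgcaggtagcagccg
Il6: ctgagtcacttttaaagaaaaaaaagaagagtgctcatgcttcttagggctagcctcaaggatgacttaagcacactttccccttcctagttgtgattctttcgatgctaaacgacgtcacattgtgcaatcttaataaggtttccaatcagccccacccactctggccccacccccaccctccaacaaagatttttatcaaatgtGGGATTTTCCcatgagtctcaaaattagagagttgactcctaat

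Of the 13407 genes tested, 10392 had a promoter in the RefSeq table, and 361 of these (3.47%) held an ISRE in the 250 bases. The share was 6.68% among genes called higher (153 of 2291), 2.33% among genes called lower (61 of 2618), 2.68% among genes not called (147 of 5483) and 17.9% among genes called higher by over 16-fold (46 of 257). The NFκB motif was rarer, in 1.49% of all these promoters, 2.18% of those called higher, 1.3% of those called lower and 4.28% of those called higher by over 16-fold. In the interferon-inducible GTPase list 9 of 10 promoters held an ISRE. Among CXC and CX3C chemokines 4 of 8 held the NFκB motif, including Cxcl3, which was not called. Other induced lists held no match of either motif: CC chemokines (7 promoters), costimulatory and checkpoint ligands (12) and cell death and inflammasome genes (25). All these shares count matches of letters in a fixed window. Binding was not measured in these libraries, and genes without an entry, such as Nos2 and Mx1, were not searched.

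Genes of the sensing machinery themselves rose, with the receptors ahead of the adaptors. Of 20 genes of double-stranded RNA and nucleic acid sensing, 15 were called higher, 1 lower and 4 were not called, with a median log2 fold change of 2.44 against -0.07 over all genes. Ifih1, the cytosolic sensor MDA5, rose from 46.3 and 67.3 CPM to 4156 and 4357 CPM (6.23 ± 0.14, adjusted p = 2.13e-14). Tlr3, the endosomal receptor, rose from 20.6 and 27.2 CPM to 425 and 438 CPM (4.17 ± 0.08, adjusted p = 1.49e-37), and the cytosolic sensor gene Ddx58 from 51.1 and 79.3 CPM to 1271 and 1339 CPM. The vehicle and poly I:C libraries were widely separated for all 3 receptors. Ddx60, a helicase gene of the same family as Ddx58, changed by 4.79 ± 0.10 on the log2 scale, Zbp1, a sensor that couples nucleic acids to cell death, by 5.69 ± 0.23, and Irf7, the interferon regulatory factor that amplifies interferon production, by 5.36 ± 0.28. Eif2ak2, the kinase PKR that halts translation, changed by 3.36 ± 0.14, and the kinase gene Tbk1 by 1.28 ± 0.06. On the adaptor side, Mavs was the member called lower, at 57.4 and 60.3 CPM and then 30.3 and 31.8 CPM (-0.92 ± 0.08, adjusted p = 1.73e-15), and Irf3 (-0.23), Ripk1 (-0.17), Tradd (-0.28) and Ticam1 (0.56) were not called, though Ticam1 was called higher with WT_Veh replicate 2 or WT_PolyIC replicate 1 left out (0.64 and 0.59). Leaving out WT_Veh replicate 1 or replicate 2 gave 4.86 or 6.12 for Irf7 and 5.15 or 6.57 for Zbp1.

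Interferon RNA itself was scarce. Of 11 interferon genes, Ifnb1 alone passed the filter on low counts: it had 0 counts under vehicle and read 7.74 and 8.89 CPM under poly I:C (adjusted p = 3.31e-17), at least 40.4-fold higher. The other 10 did not pass and were not tested. Downstream, the interferon receptor and JAK-STAT list had 14 of 21 genes called higher and 2 lower, with a median of 2.12. Among its transducers, Stat2 rose from 56.4 and 102 CPM to 1058 and 1113 CPM (3.78 ± 0.19). Jak2 went from 42.2 and 47.8 CPM to 590.0 and 632 CPM (3.76 ± 0.07, adjusted p = 1.02e-47). Inhibitors of the pathway rose too, except Pias1, which was not called (0.57). Usp18, a protease that removes ISG15 and damps the receptor, went from 7.36 and 14.4 CPM to 880.3 and 908 CPM (6.36 ± 0.15). Socs1, which blocks JAK kinases, went from 1.65 and 2.46 CPM to 134 and 130.5 CPM (6.00 ± 0.14), and Socs3 from 1.65 and 7.04 CPM to 89.1 and 82.1 CPM (4.29 ± 0.26). The 2 members called lower were receptor chains: Ifnar1 went from 203 and 228 CPM to 114 and 118 CPM (-0.90 ± 0.06, adjusted p = 3.32e-20) and Il10rb from 400.1 and 377 CPM to 246 and 227 CPM (-0.72 ± 0.05), whereas Ifnar2 was not called (-0.11). Without WT_Veh replicate 1 or replicate 2, the log2 fold change was 3.60 or 5.69 for Socs3.

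Antiviral effectors rose with a single exception. Of 42 interferon-stimulated effectors, 41 were called higher and 1 lower, with a median of 3.89, and their summed level went from 2135 and 3215 CPM to 79020 and 81480 CPM. Rsad2, which encodes viperin, an enzyme that makes a chain-terminating nucleotide, went from 29.02 and 50.6 CPM to 17399 and 17843 CPM (8.79 ± 0.22, adjusted p = 1.15e-13). Its neighbour Cmpk2, a mitochondrial nucleotide kinase, went from 18.5 and 39.9 CPM to 9866 and 10088 CPM (8.41 ± 0.26). Ifit2, of the family that binds foreign RNA, went from 23.2 and 77.1 CPM to 10395 and 10846 CPM (7.72 ± 0.39), and Ifit1 from 13.2 and 33.7 CPM to 3732 and 3779 CPM (7.32 ± 0.28). Both vehicle replicates lay far below both poly I:C replicates, although replicate 2 of the vehicle was the higher in each. Mx1, of the Mx family of dynamin-like antiviral GTPases, went from 4.74 and 14.7 CPM to 2734 and 2959 CPM (8.19 ± 0.25). Isg15, a ubiquitin-like modifier whose promoter is shown above, went from 3.09 and 11.7 CPM to 934 and 902 CPM (6.95 ± 0.25). Ifi205, a HIN-domain protein, changed most in the list, from 0.275 and 1.50 CPM to 978 and 1061 CPM (10.14 ± 0.20, adjusted p = 1.42e-16). The exception was Ifitm1, of the family that blocks viral fusion, at 2.75 and 2.46 CPM and then 0.952 and 0.721 CPM (-1.63 ± 0.43, adjusted p = 0.000801), while its relative Ifitm3 rose from 212 and 269 CPM to 1277 and 1278 CPM. Ifit3 and Ifit3b, and several Oas and Phf11 genes, are near copies whose reads the counting may have split. With WT_Veh replicate 1 or replicate 2 left out, the fit gave 7.96 or 9.07 for Cmpk2, 6.80 or 8.15 for Ifit1, 7.10 or 8.84 for Ifit2, 7.59 or 9.22 for Mx1, 6.29 or 8.21 for Isg15 and 9.39 or 11.80 for Ifi205; Rsad2 moved by less than 1.5-fold.

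All 15 interferon-inducible GTPases tested, which coat and disrupt the vacuoles of intracellular pathogens, were called higher, with a median of 7.07, or 7.71 without WT_Veh replicate 2. Gbp5 rose from 1.79 and 6.36 CPM to 3313 and 3319.5 CPM (9.66 ± 0.24, adjusted p = 8.39e-14). Gbp4 rose from 0.138 and 1.64 CPM to 542 and 611 CPM (9.32 ± 0.24). Gbp2 rose from 22.1 and 67.4 CPM to 6839 and 6954 CPM (7.27 ± 0.33). In each, the poly I:C libraries lay far above both vehicle libraries. Iigp1 rose from 1.44 and 7.46 CPM to 1624 and 1736 CPM (8.55 ± 0.26) and Tgtp1 from 0.0688 and 0.274 CPM to 72.4 and 82.4 CPM (8.73 ± 0.26). Less far rose Irgm1, a regulator of the other family members, from 62.0 and 95.0 CPM to 1518 and 1577 CPM (4.30 ± 0.14). Guanylate-binding proteins and the Tgtp pair share long stretches of sequence, so single members are uncertain. Leaving out WT_Veh replicate 1 or replicate 2 gave 9.02 or 10.85 for Gbp5, 8.45 or 11.93 for Gbp4, 6.67 or 8.28 for Gbp2, 7.81 or 10.17 for Iigp1 and 8.09 or 9.93 for Tgtp1.

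**Figure D2:**
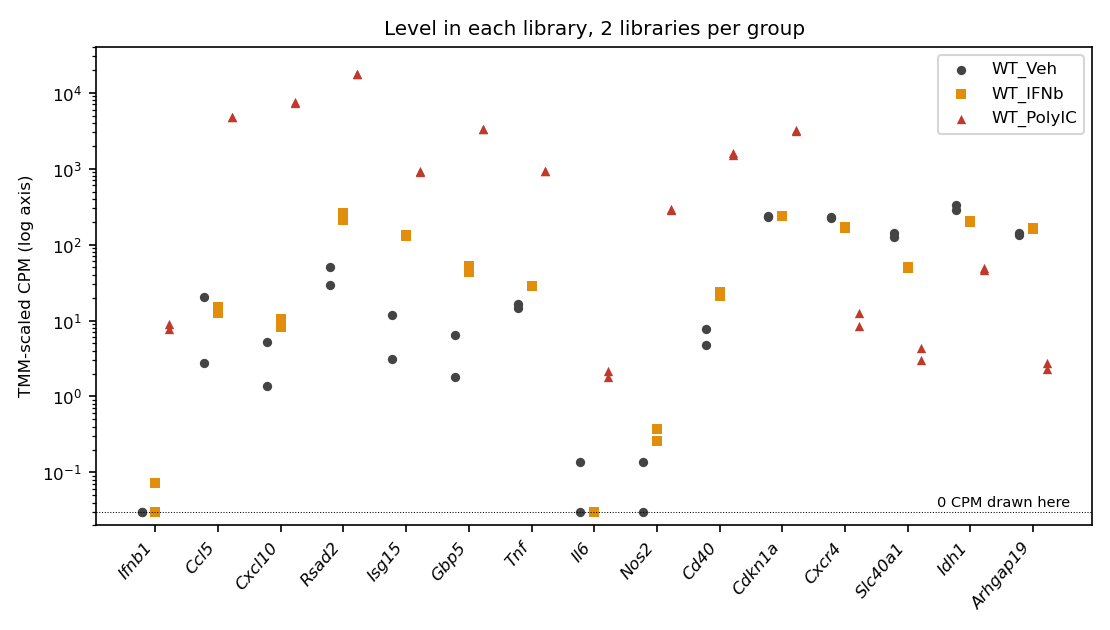
CPM (log axis) of 15 genes in each WT library: dark circles WT_Veh, orange squares WT_IFNb, red triangles WT_PolyIC, 2 libraries per group; values of 0 CPM are drawn on the dotted line. The poly I:C libraries stand apart from both vehicle libraries in each gene, above them in Ifnb1 to Cdkn1a and below them in Cxcr4 to Arhgap19; for Ccl5 the IFNb libraries lie between the vehicle replicates.

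Cytokine RNAs rose unevenly: Tnf and cytokines that act on T and NK cells rose by large factors, Il6 stayed at a low level and the IL1 genes were not called. Of 22 cytokine genes tested, 17 were called higher and the other 5 were not called, with a median of 4.21, or 2.73 with the genes of 0 to 3 vehicle counts at their bound. Tnf rose from 14.5 and 16.3 CPM to 917 and 929 CPM (5.91 ± 0.08, adjusted p = 1.29e-51). Il27, an IL12-family cytokine, rose from 0.138 and 0.479 CPM to 265 and 279 CPM (9.74 ± 0.14). Il12b, the shared IL12 and IL23 subunit, rose from 0 and 0.41 CPM to 101 and 120.0 CPM (9.00 ± 0.22). The poly I:C libraries stood far above both vehicle libraries for all 3. Tnfsf10, the death ligand TRAIL, rose from 0.894 and 2.46 CPM to 644 and 682 CPM (8.62 ± 0.17). Il15, which supports NK and memory T cells, rose from 20.8 and 24.3 CPM to 537 and 557 CPM (4.60 ± 0.07). Il10, the anti-inflammatory cytokine, rose less, from 2.20 and 1.85 CPM to 12.1 and 12.0 CPM (2.57 ± 0.19). Il6 reached only 2.14 and 1.80 CPM from 0 and 0.137 CPM (adjusted p = 6.25e-09), a ratio of 28.8-fold (95% counting interval 7.38 to 248). Il1b, at 1.99 and 7.18 CPM and then 8.21 and 9.25 CPM, was not called (0.92 ± 0.40, adjusted p = 0.0584), and neither was Il1a (1.41 ± 0.62, adjusted p = 0.06); without WT_Veh replicate 2 both were called higher. The natural IL1 antagonist Il1rn rose from 24.5 and 28.4 CPM to 586 and 656 CPM (4.55 ± 0.10). Fits without WT_Veh replicate 1 or replicate 2 gave 9.12 or 10.84 for Il27, 8.03 or 13.38 for Il12b, 8.06 or 9.52 for Tnfsf10, 0.28 or 2.12 for Il1b and 0.54 or 3.93 for Il1a.

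Chemokines for T cells and monocytes were among the most induced genes of all, while of those for neutrophils only Cxcl2 was called with each of the 4 libraries left out in turn. Of 12 CC chemokines tested, 10 were called higher and 1 lower (median 4.60), and of 11 CXC and CX3C chemokines 7 were called higher and the other 4 were not called (median 2.77). The latter median is the fitted value of Cxcl5, a gene with almost no counts, so it depends on the prior count. The 3 ligands of CXCR3, the receptor of effector T cells, all rose. Cxcl10 went from 1.38 and 5.20 CPM to 7296 and 7464 CPM (11.13 ± 0.25, adjusted p = 3.07e-14). Cxcl9 went from 0.481 and 2.67 CPM to 2584 and 2949 CPM (10.77 ± 0.25). Cxcl11 went from 0 and 0.137 CPM to 119 and 135 CPM, a ratio of 1856-fold (95% counting interval 513 to 15340). Ccl5, which attracts T cells and monocytes, rose from 2.75 and 20.3 CPM to 4752 and 4754 CPM (8.68 ± 0.37, adjusted p = 5.77e-11). The vehicle replicates of Ccl5 stood well apart from each other, yet both lay far below poly I:C. The monocyte chemokine Ccl2 rose from 5.43 and 3.28 CPM to 96.6 and 94.9 CPM (4.46 ± 0.32), and Ccl4 from 15.1 and 21.8 CPM to 538 and 588 CPM (4.93 ± 0.13). Ccl8 changed by 7.43 ± 0.21, Ccl22, which attracts regulatory T cells, by 6.37 ± 0.18, and the membrane-bound chemokine gene Cx3cl1 by 3.47 ± 0.25. Among neutrophil chemokines, Cxcl2 went from 3.23 and 5.06 CPM to 43.9 and 38.6 CPM (3.31 ± 0.23), and Cxcl1 from 0.825 and 0.684 CPM to no more than 1.67 and 1.44 CPM (1.03 ± 0.45, adjusted p = 0.0369), a call that was lost with any 1 of the 4 libraries left out. Cxcl3, at 0 and 0.616 CPM and then 0.119 and 0 CPM, and Cxcl5, with 0 vehicle counts and 0.119 and 0 CPM, were not called; Cxcl3 was called lower without WT_Veh replicate 1. Ccl6, a chemokine of resting macrophages, was the member called lower (-0.87 ± 0.15, adjusted p = 0.000156), and Pf4 was not called (0.26). When WT_Veh replicate 1 or replicate 2 was left out, the log2 fold changes were 10.47 or 12.38 for Cxcl10, 10.01 or 12.46 for Cxcl9, 7.87 or 10.75 for Ccl5 and 5.55 or 8.45 for Ccl22.

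Of 12 receptors for chemoattractants tested, 3 were called higher and 4 lower, shares not far from those over all genes (22.2% higher and 25% lower). Cxcr4, the receptor that retains cells in the marrow, fell from 232 and 225 CPM to 12.7 and 8.53 CPM (-4.42 ± 0.09, adjusted p = 1.02e-46). Cx3cr1, the fractalkine receptor, fell from 18.4 and 24.1 CPM to 4.52 and 5.65 CPM (-2.06 ± 0.28) and Ccr1 from 15.7 and 25.2 CPM to 5.71 and 5.65 CPM (-1.85 ± 0.21). The atypical receptor gene Ccrl2 rose from 62.6 and 56.0 CPM to 1262 and 1269 CPM (4.41 ± 0.07, adjusted p = 4.7e-50), and the formyl peptide receptor gene Fpr2 from 0.619 and 1.57 CPM to 79.5 and 82.8 CPM (6.20 ± 0.17). Fpr1, for the same class of ligand, changed by 2.34 ± 0.39 and Ccr3 by -1.30 ± 0.18. Leaving out WT_Veh replicate 1 or replicate 2 gave 5.68 or 7.01 for Fpr2 and 1.74 or 3.39 for Fpr1.

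NFκB genes rose moderately, and the largest changes were in feedback genes. Of 26 subunit and feedback genes, 21 were called higher and 3 lower, with a median of 1.69. Among subunits, Nfkb1 rose from 115 and 123 CPM to 619 and 649.6 CPM (2.41 ± 0.06) and Rela from 127 and 137 CPM to 318 and 313 CPM (1.26 ± 0.06). Among inhibitors and other feedback genes, the phosphatase gene Dusp2 changed by 4.15 ± 0.12. Nfkbie (IκBε) rose from 21.04 and 23.9 CPM to 516 and 530.2 CPM (4.54 ± 0.07, adjusted p = 5.74e-53). Tnfaip3, the ubiquitin-editing enzyme A20, rose from 44.97 and 47.5 CPM to 716 and 781 CPM (4.02 ± 0.06) and Nfkbia (IκBα) from 46.8 and 59.7 CPM to 716 and 742 CPM (3.77 ± 0.07). Irak3, a brake on MyD88 signalling, was called lower, at 31.3 and 34.4 CPM and then 12.0 and 14.2 CPM (-1.33 ± 0.11, adjusted p = 8.01e-17), as were Pdlim2 (-0.78 ± 0.13) and Trib1 (-0.60 ± 0.13, or -0.53 and not called without WT_Veh replicate 2). In the list of interferon regulatory, AP-1 and other induced transcription factors, 16 of 30 were called higher and 3 lower (median 0.74). Batf2 (5.22 ± 0.09) and Irf1 (3.94 ± 0.08), both known interferon targets, and Maff (3.01 ± 0.25) led, whereas the immediate early genes Fos (0.14), Jun (0.03), Atf3 (0.01) and Myc (-0.31) were not called at 6 h. Irf4 (-2.86 ± 0.44), Egr2 (-1.65 ± 0.17) and Egr1 (-0.63 ± 0.17) were called lower, Egr1 not with WT_Veh replicate 1 (-0.51) or WT_PolyIC replicate 2 (-0.54) left out. Of 18 other Toll-like receptor genes and adaptors, 10 were called higher, led by the DNA receptor gene Tlr9 (3.55 ± 0.12), by Tlr2 (2.79 ± 0.07) and its partner Tlr1 (2.72 ± 0.10) and by the adaptor gene Myd88 (2.46 ± 0.06), and 2 were called lower: Tlr13, a receptor for bacterial ribosomal RNA, from 585 and 627 CPM to 223 and 226 CPM (-1.43 ± 0.06), and Irak4 (-0.59 ± 0.09), which was not called with WT_Veh replicate 2 (-0.50) or WT_PolyIC replicate 2 (-0.53) left out.

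**Figure D3:**
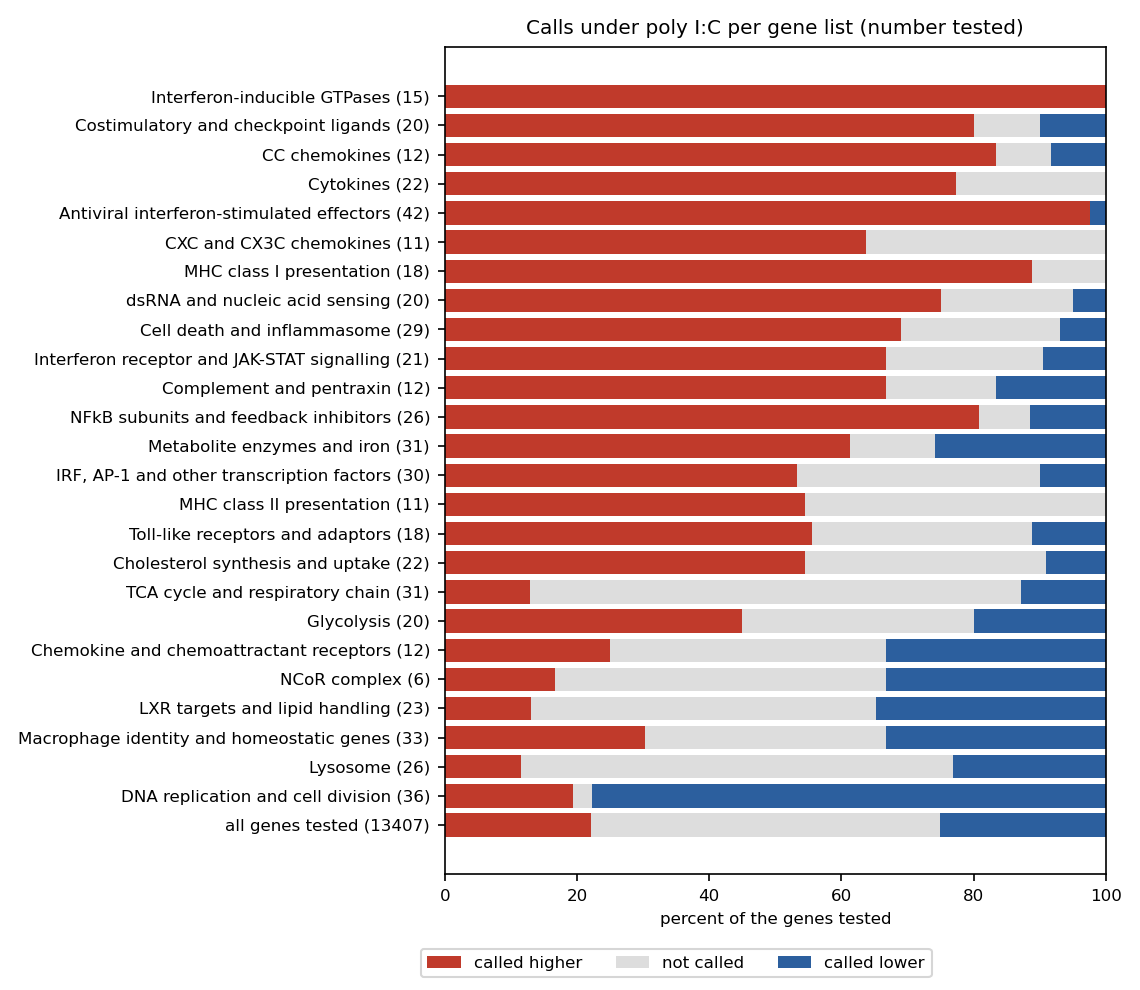
Share of the genes tested (x, percent) called higher (red), not called (grey) and called lower (blue) under poly I:C in each gene list with at least 5 genes tested; the number tested is in parentheses, lists are ordered by median log2 fold change, and the lowest bar is all 13407 genes. Interferon-inducible GTPases (15 of 15 higher) and DNA replication and cell division (28 of 36 lower) are among the most one-sided, with antiviral effectors (41 of 42 higher).

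Genes that present antigen on MHC class I, to CD8 T cells, rose nearly throughout, and those of class II, to CD4 T cells, in part. Of 18 MHC class I genes, 16 were called higher and the other 2 were not called (median 2.47). Nlrc5, the class I transactivator, rose from 34.2 and 63.8 CPM to 1012 and 1028 CPM (4.38 ± 0.17). The peptide transporter gene Tap1 rose from 69.2 and 92.5 CPM to 1423 and 1453 CPM (4.15 ± 0.08, adjusted p = 5e-26) and its partner Tap2 by 3.42 ± 0.07. The proteasome activator gene Psme2 changed by 3.24 ± 0.08 and the immunoproteasome subunit gene Psmb9 by 3.03 ± 0.08. The light chain gene B2m rose from 2115 and 2298 CPM to 5569.6 and 5614 CPM (1.34 ± 0.05). The general chaperone genes Calr (0.16) and Pdia3 (0.22) were not called. Of 11 MHC class II genes, 6 were called higher, or 9 without WT_Veh replicate 2, and the other 5 were not called (median 0.69). Ciita, the class II transactivator, rose from 6.26 and 8.69 CPM to 47.4 and 56.8 CPM (2.80 ± 0.13). The invariant chain gene Cd74 rose from 193 and 293 CPM to 465 and 456 CPM (0.92 ± 0.17, adjusted p = 0.000272), while H2-Ab1 changed by 0.99 ± 0.13 and H2-DMa by 0.98 ± 0.14. H2-Oa had 0 vehicle counts and read 0.833 and 1.92 CPM, at least 6.70-fold higher. H2-Aa was not called (0.47 ± 0.16, adjusted p = 0.0201), but was called higher without WT_Veh replicate 2 (0.79). H2 genes are close relatives, so single values are uncertain.

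Costimulatory and checkpoint ligands rose along with presentation: 16 of 20 were called higher and 2 lower (median 4.65, or 4.39 with low-count genes at their bound). Cd40, the receptor through which T cells license macrophages, rose from 4.74 and 7.80 CPM to 1506 and 1612 CPM (7.95 ± 0.11, adjusted p = 3.64e-32). Vcam1, an adhesion molecule, rose from 5.43 and 4.86 CPM to 773 and 784 CPM (7.24 ± 0.09, adjusted p = 8.13e-55). Cd86, the ligand of CD28, rose from 5.71 and 7.18 CPM to 189 and 191 CPM (4.88 ± 0.09). Cd274, the checkpoint ligand PD-L1, rose from 108 and 122 CPM to 2451 and 2555 CPM (4.44 ± 0.08). Both stimulatory and inhibitory ligands were thus among the genes called. Lag3, a checkpoint receptor, rose from 0.138 and 0 CPM to 18.4 and 17.7 CPM, a ratio of 263-fold (95% counting interval 72.1 to 2178). Clec4e, the receptor Mincle, rose from 6.88 and 18.5 CPM to 1100.3 and 1116 CPM (6.45 ± 0.22; 5.90 or 7.33 with WT_Veh replicate 1 or replicate 2 left out). Called lower were Mrc1, the mannose receptor, from 249 and 264 CPM to 90.7 and 92.2 CPM (-1.49 ± 0.07), and Havcr2, the checkpoint receptor TIM3, from 21.3 and 17.8 CPM to 3.81 and 5.17 CPM (-2.12 ± 0.19).

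Of 29 cell death and inflammasome genes, 20 were called higher and 2 lower (median 2.21). Mlkl, the executioner of necroptosis, rose from 9.83 and 9.58 CPM to 251 and 255 CPM (4.70 ± 0.08, adjusted p = 8.98e-50). Daxx rose from 46.7 and 57.6 CPM to 901 and 891 CPM (4.10 ± 0.11). Fas, a death receptor, rose from 3.92 and 3.42 CPM to 49.6 and 55.8 CPM (3.84 ± 0.14). The inflammasome sensor gene Nlrp3 rose from 31.6 and 41.3 CPM to 392 and 409.8 CPM (3.46 ± 0.08). Casp4, the mouse gene of the cytosolic lipopolysaccharide sensor caspase 11, rose from 27.8 and 43.6 CPM to 347 and 346 CPM (3.28 ± 0.12). Nlrc4, the inflammasome partner of flagellin sensors, was called lower (-0.74 ± 0.14, adjusted p = 2.74e-06), as was the pro-apoptotic gene Bcl2l11 (-0.60 ± 0.06), which was not called with WT_Veh replicate 2 left out (-0.49). The survival genes Bcl2a1a (7.27 ± 0.27) and Bcl2a1d (5.88 ± 0.14) had the largest changes of the list, but are near copies whose counts are uncertain; with WT_Veh replicate 1 or replicate 2 left out the changes were 6.78 or 8.03 for Bcl2a1a and 5.50 or 6.40 for Bcl2a1d.

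Among enzymes of arginine, itaconate, prostaglandin and other metabolites and of iron handling, 19 of 31 genes were called higher and 8 lower (median 1.36, or 2.29 without WT_Veh replicate 2). Acod1, which makes itaconate, rose from 2.82 and 11.1 CPM to 6419 and 6524 CPM (9.86 ± 0.26, adjusted p = 2.31e-13). Ptgs2, cyclooxygenase 2, rose from 0.688 and 2.60 CPM to 362 and 396 CPM (7.84 ± 0.26). Ch25h, which makes the antiviral sterol 25-hydroxycholesterol, rose from 0.0688 and 0.547 CPM to 56.9 and 59.7 CPM (7.51 ± 0.22). Kynu, of tryptophan breakdown, rose from 0.206 and 0.342 CPM to 44.7 and 50.1 CPM (7.38 ± 0.28). Genes that supply nitric oxide synthase rose beside Nos2: Gch1, which makes its cofactor, by 3.82 ± 0.08, and Ass1, which recycles arginine, by 3.67 ± 0.17, while Arg1 was at 0 and 0.12 CPM under poly I:C and not called. The constitutive prostaglandin and leukotriene genes Ptgs1 (-1.73 ± 0.15) and Alox5ap (-1.10 ± 0.06) were called lower, as was the prostaglandin E2 receptor gene Ptger2 from 15.9 and 13.8 CPM to 0.476 and 1.68 CPM (-3.77 ± 0.26; -3.14 or -4.93 with WT_PolyIC replicate 1 or replicate 2 left out). Arg2 was called lower at under 1 CPM, from 0.55 and 0.684 CPM to 0.238 and 0 CPM, a call lost without WT_Veh replicate 2 or WT_PolyIC replicate 2. The metal transporter gene Slc11a1 was called lower too (-0.61 ± 0.05). Further iron genes fell besides Slc40a1: the transferrin receptor gene Tfrc went from 275 and 268 CPM to 92.0 and 93.0 CPM (-1.55 ± 0.06, adjusted p = 1.33e-30). The haem oxygenase gene Hmox1 went from 374 and 359 CPM to 174 and 158 CPM (-1.14 ± 0.12). In contrast, the ferroxidase gene Cp rose from 4.54 and 9.10 CPM to 88.1 and 86.0 CPM (3.67 ± 0.16). Without WT_Veh replicate 1 or replicate 2, the log2 fold changes were 9.19 or 11.16 for Acod1, 7.18 or 9.08 for Ptgs2, 6.71 or 9.52 for Ch25h and 3.25 or 4.26 for Cp.

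In central carbon metabolism the list medians stayed near 0, while single genes changed in both directions. Of 20 glycolysis genes 9 were called higher and 4 lower (median 0.10). Of 31 genes of the TCA cycle and respiratory chain 4 were called higher, 4 lower and 23 were not called (median 0.11). Over all genes 22.2% were called higher and 25% lower. Slc2a6, a lysosomal hexose transporter gene, rose from 15.8 and 21.8 CPM to 1442 and 1425 CPM (6.25 ± 0.10, adjusted p = 2e-28), Pfkp, a phosphofructokinase gene, changed by 1.96 ± 0.06, and Pfkfb3, which makes the activator of this enzyme, rose from 40.0 and 45.4 CPM to 223 and 222 CPM (2.38 ± 0.07). The glycolytic enzyme genes Tpi1 (-0.88 ± 0.06), Pgam1 (-0.84 ± 0.18) and Gpi1 (-0.67 ± 0.06) were called lower. The glucose transporter gene Slc2a3 was also called lower, at 6.19 and 6.77 CPM and then 1.67 and 0.481 CPM (-2.58 ± 0.31; -3.73 or -1.96 with WT_PolyIC replicate 1 or replicate 2 left out). Idh1, the cytosolic isocitrate dehydrogenase, fell from 335 and 287 CPM to 46.4 and 48.9 CPM (-2.71 ± 0.07, adjusted p = 2.23e-41), and its mitochondrial counterpart Idh2 changed by -0.95 ± 0.10, while Ppargc1b, the coactivator PGC1β, rose from 3.44 and 4.17 CPM to 28.7 and 28.8 CPM (2.91 ± 0.16), and its nuclear receptor partner Esrra by 1.03 ± 0.08. Gapdh read only 0.481 and 0.342 CPM and then 1.31 and 1.20 CPM; it has many processed copies, and its row is uncertain.

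Genes of cholesterol synthesis and uptake were more often called higher than lower. Of 22 genes of cholesterol synthesis and uptake, 12 were called higher and 2 lower (median 0.61): Insig1, which retains the transcription factor SREBP in the endoplasmic reticulum, rose from 35.8 and 48.6 CPM to 98.5 and 108 CPM (1.29 ± 0.12, adjusted p = 2.26e-08), whereas Dhcr7, which acts last in the pathway, fell from 33.9 and 34.8 CPM to 8.57 and 10.9 CPM (-1.82 ± 0.12), and Fdft1 changed by -0.61 ± 0.06 and was not called without WT_Veh replicate 1 (-0.55). Of 23 LXR targets and lipid handling genes, 3 were called higher and 8 lower (median -0.16), against 22.2% higher and 25% lower over all genes. Abca1, the cholesterol efflux pump, was called lower, at 619.6 and 632 CPM and then 346 and 298 CPM (-0.96 ± 0.08, adjusted p = 8.41e-10), as were the fatty acid carrier gene Fabp4 (-2.24 ± 0.09), the cholesterol-esterifying enzyme gene Soat1 (-1.73 ± 0.06), the lipid droplet gene Plin2 (-0.71 ± 0.05) and the scavenger receptor gene Cd36 (-0.62 ± 0.05, not called without WT_Veh replicate 1, -0.54), while Abcg1 (0.29) and Apoe (0.04) were not called. Srebf1, the regulator of fatty acid synthesis, rose from 79.6 and 88.8 CPM to 362 and 358 CPM (2.10 ± 0.06), as did Nr1h3, the receptor LXRα itself, by 1.83 ± 0.07, and the lysosomal cholesterol carrier gene Npc2, by 0.95 ± 0.05.

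Of 33 genes of macrophage identity, 10 were called higher and 11 lower (median -0.21), beside 22.2% and 25% over all genes, so the counts say little about the list and single genes are given. Csf1r (-0.23), Adgre1 (-0.06) and Cd68 (-0.14), markers of the cell type, stayed within 1.5-fold and were not called. Other markers of the cell type did move: Spi1 went from 401 and 443.5 CPM to 1221 and 1144 CPM, and Mertk was called higher (1.14). The lysophospholipid receptor gene Gpr34 fell from 12.9 and 7.87 CPM to 0.476 and 0.24 CPM (-4.81 ± 0.41). The haemoglobin scavenger receptor gene Cd163 fell from 9.56 and 8.69 CPM to 0.833 and 1.32 CPM (-3.07 ± 0.30, adjusted p = 4.04e-14). Neither overlapped between the groups. Hpgds, prostaglandin D synthase, fell from 277 and 262 CPM to 56.5 and 59.1 CPM (-2.22 ± 0.07). Fcgr1, the high-affinity IgG receptor and a known interferon target, rose from 192 and 298 CPM to 1654 and 1683 CPM (2.77 ± 0.14). Axl, a receptor for apoptotic cells, rose from 78.6 and 87.1 CPM to 629 and 626 CPM (2.92 ± 0.06, adjusted p = 2.4e-45). Timd4, another such receptor, rose from 0.0688 and 0 CPM to 2.86 and 2.52 CPM, a ratio of 78.2-fold (95% counting interval 13.3 to 3158). Of 12 complement and pentraxin genes, 8 were called higher and 2 lower (median 1.74). C3, the central component, rose from 32.4 and 105 CPM to 5003 and 5229 CPM (6.22 ± 0.36). Cfb, its partner in the alternative pathway, rose from 0.894 and 7.52 CPM to 263 and 259 CPM (5.95 ± 0.28). C2 changed by 3.20 ± 0.43 and the pentraxin gene Ptx3 by 3.13 ± 0.29, while the C5a receptor gene C5ar2 (-1.75 ± 0.15) was among those called lower. With WT_Veh replicate 1 or replicate 2 left out, the fit gave 5.60 or 7.30 for C3 and 5.11 or 8.17 for Cfb. Of 26 lysosome genes 3 were called higher and 6 lower (median -0.26), beside 22.2% and 25% over all genes. Atp6v0d2, a proton pump subunit, fell from 987 and 811 CPM to 314 and 317 CPM (-1.51 ± 0.06). The members called higher included Ctsz (0.68 ± 0.05) and Lamp2 (0.64 ± 0.05, near 0 with no scaling), and Lamp1 was not called (-0.02).

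Genes of DNA replication and cell division fell apart from 7 members, among them 3 cyclin genes of G1 phase and the inhibitor p21. Of 36, 28 were called lower, 7 higher and 1 was not called, with a median of -1.37 against -0.07 over all genes. Rrm2, which supplies deoxynucleotides, fell from 15.6 and 12.5 CPM to 1.31 and 1.20 CPM (-3.47 ± 0.39, adjusted p = 1.91e-07). Mcm2, of the replicative helicase, fell from 16.3 and 21.5 CPM to 2.74 and 2.76 CPM (-2.78 ± 0.20). Top2a, the topoisomerase that untangles chromosomes, fell from 46.8 and 37.0 CPM to 9.16 and 9.49 CPM (-2.17 ± 0.22) and Cdk1, the mitotic kinase, from 17.4 and 15.2 CPM to 3.69 and 2.64 CPM (-2.36 ± 0.21). Every one of these lay lower in both poly I:C libraries than in either vehicle library. Cdc6, which loads the helicase, read 3.71 and 2.80 CPM and then 0 and 0.24 CPM, a ratio of vehicle over poly I:C of 27.1-fold (95% counting interval 7.30 to 227), and the cyclin gene Ccnb1 a ratio of 16.0-fold (95% counting interval 5.30 to 79.3). The members called higher were Ccnd2, Cdkn1a, Ccne1, Ccnd1 (1.77 ± 0.07), E2f8 (1.00 ± 0.14), Mki67 and the sliding clamp gene Pcna (0.63 ± 0.06, near 0 with no scaling), and mostly through Cdkn1a the summed level of the list went up, from 1175 CPM in both vehicle libraries to 4791 and 4615 CPM. Cdkn1a, the cyclin-dependent kinase inhibitor p21, rose from 231 and 237 CPM to 3276 and 3104 CPM (3.77 ± 0.06, adjusted p = 4.87e-53). The G1 cyclin gene Ccnd2 rose from 11.8 and 12.9 CPM to 413 and 445 CPM (5.11 ± 0.08). Ccne1 rose from 3.78 and 3.69 CPM to 42.6 and 46.0 CPM (3.56 ± 0.15). The proliferation marker Mki67 was called higher as well, at 56.5 and 46.5 CPM and then 93.9 and 92.4 CPM (0.86 ± 0.09, adjusted p = 1.9e-09). In the NCoR complex, Tbl1xr1 (-1.44 ± 0.07) was called lower and Tbl1x (1.00 ± 0.08) higher, while Hdac3 (-0.10) and Ncor1 (0.06) were not called.

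**Figure D4:**
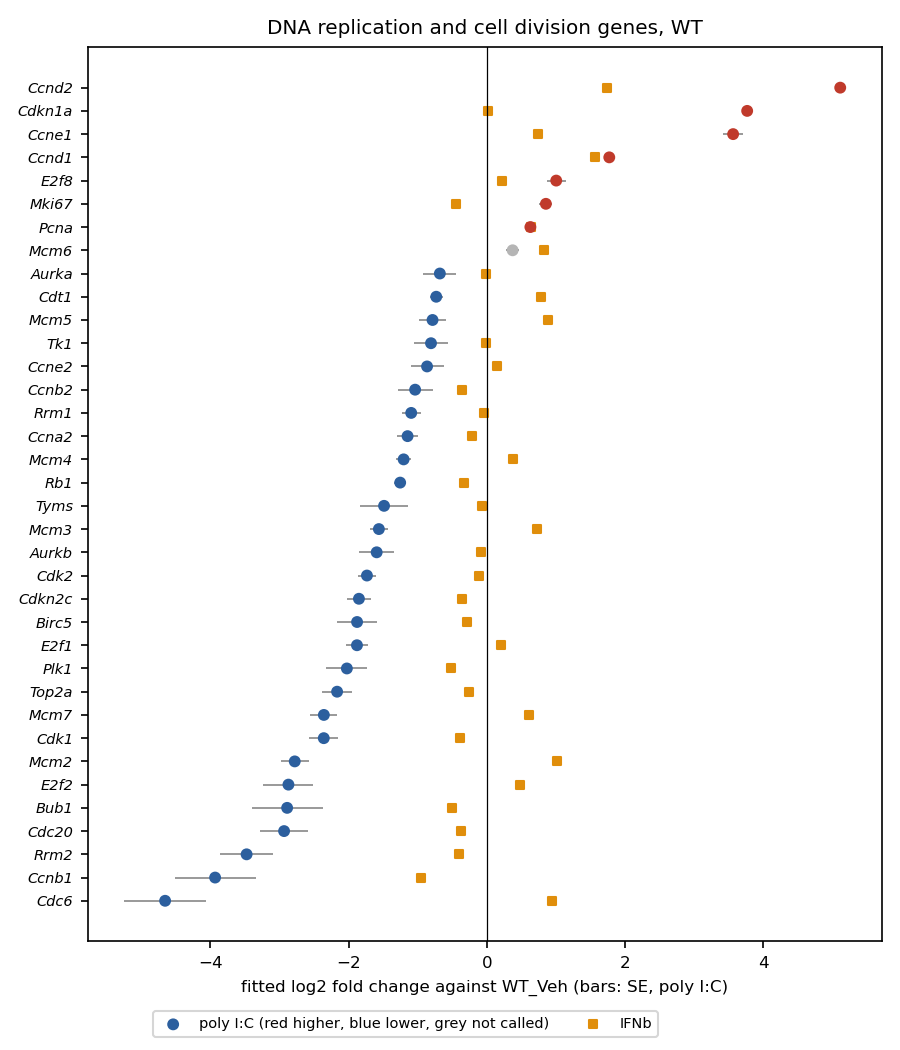
Fitted log2 fold change against WT_Veh (x) of the 36 DNA replication and cell division genes under poly I:C (circles with SE bars; red called higher, blue called lower, grey not called) and under IFNb (orange squares). Under poly I:C 28 genes lie at the left, with Cdc6 lowest, and Ccnd2 and Cdkn1a lie furthest right.

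Set against interferon β given directly for 6 h, poly I:C gave the higher level for nearly all interferon-inducible genes listed and also moved gene lists whose median IFNb left near 0. The 2 treatments share the vehicle libraries, so only their direct contrast was tested, WT_PolyIC against WT_IFNb: 2743 genes were called higher under poly I:C (20.5% of the genes tested) and 2881 lower (21.5% of the genes tested). Of the 15 GTPases all 15 were called higher under poly I:C than under IFNb, and of the 42 antiviral effectors 39, with 1 lower; median log2 fold changes against vehicle were 7.07 and 2.81 for the GTPases and 3.89 and 2.28 for the effectors, for poly I:C and IFNb. Rsad2 reached 209 and 262 CPM under IFNb, below its poly I:C level by 6.23 ± 0.19 on the log2 scale (adjusted p = 1.52e-12). Cxcl10 reached 8.22 and 10.4 CPM (9.64 ± 0.23, adjusted p = 5.27e-14) and Ccl5 15.2 and 12.5 CPM, within the range of the vehicle replicates (8.42 ± 0.37, adjusted p = 7.54e-11). Irf7 came closer, at 991 and 1028 CPM (1.49 ± 0.23, adjusted p = 7.5e-05), as did Ifi44 at 214 and 238 CPM (1.76 ± 0.16). Siglec1, an interferon-induced lectin of macrophages, read 841 and 863 CPM under IFNb and 626 and 645 CPM under poly I:C and did not differ by the call rule (-0.42 ± 0.10). Lists outside the interferon targets separated the treatments too. Of 26 NFκB genes, 21 were called higher under poly I:C than under IFNb, and of 22 cytokines 19; medians against vehicle were 1.69 and 0.05 for NFκB genes and 4.21 and 0.10 for cytokines. Of the 36 cell division genes 28 were called lower under poly I:C than under IFNb, with medians of -1.37 and -0.01 against vehicle, but 11 of the 36 were called higher and 1 lower under IFNb against vehicle; Mcm2 reached 37.0 and 39.6 CPM. Of the 22 cytokines 5 were called higher and 1 lower under IFNb against vehicle. These list counts under IFNb are to be read beside those over all 13407 genes, given next by the call under poly I:C. Over all genes, IFNb against vehicle called higher 463 of the 2974 genes called higher under poly I:C. It called higher 42 of the 3357 called lower under poly I:C and 44 of the 7076 not called. Called lower under IFNb were 28, 226 and 64 of these 3 sets. The labels give no dose; by the study's methods the agents were given at different concentrations.

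Set against the TLR4 agonist KLA, poly I:C gave a smaller response in many NFκB genes and cytokines, and a called difference in few antiviral effectors, GTPases and MHC class I genes. The KLA responses came from 2 other tables with their own vehicle libraries, date stamps and mice of another genotype, so agent, table, date and genotype cannot be told apart; each was compared as a difference of responses over the 11825 genes tested jointly. The poly I:C response was called above the KLA response for 1487 genes and below it for 1196 in the first table (12.6% and 10.1% of those tested), and for 1416 and 1382 in the second (12% and 11.7%). Against both, 948 genes were called above (8.02%) and 882 below (7.46%), and only these are said to differ. Among the 26 NFκB genes, 17 were called below KLA in both and 1 above; among the 24 cytokines tested jointly 12 were called below and none above. Il6, with so few counts under vehicle and poly I:C that its fold is given above as a ratio, was called below KLA in both tables. On the log2 scale of the joint fit, Il1b changed by 0.88 under poly I:C against 10.62 and 10.41 under KLA, Socs3 by 4.25 against 10.38 and 9.40, and Jak2 by 3.71 against 4.74 and 4.47; without WT_Veh replicate 1 or replicate 2, the poly I:C values of the main fit were 0.28 or 2.12 for Il1b and 3.60 or 5.69 for Socs3. Tnf, called below KLA as well, differed by less, with 5.86 against 7.32 and 8.57. Of 38 antiviral effectors tested jointly none was called above and 4 below, of 15 GTPases 1 above and none below, and of 18 MHC class I genes none in either direction. In the interferon receptor and JAK-STAT list, by contrast, 9 of 20 were called below and 2 above. Rsad2 changed by 8.74 against 9.11 and 8.57 and Tap1 by 4.10 against 4.39 and 4.30, neither called in both tables. The receptor gene Ifnar1 went in opposite directions, -0.94 under poly I:C and 1.33 and 1.38 under KLA (-2.27 ± 0.09 and -2.33 ± 0.09), and Irak3 likewise, -1.37 and 2.84 and 2.93. Called above KLA were Kynu (7.33 against 4.55 and 3.53), Cd86 (4.83 against 3.77 and 3.43), Ciita (2.75 against -0.14 and 0.34), Srebf1 (2.05 against 0.39 and 1.23), Tlr9 (3.50 against 1.14 and 1.27) and Ccne1 (3.52 against 1.35 and 1.88).

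**Figure D5:**
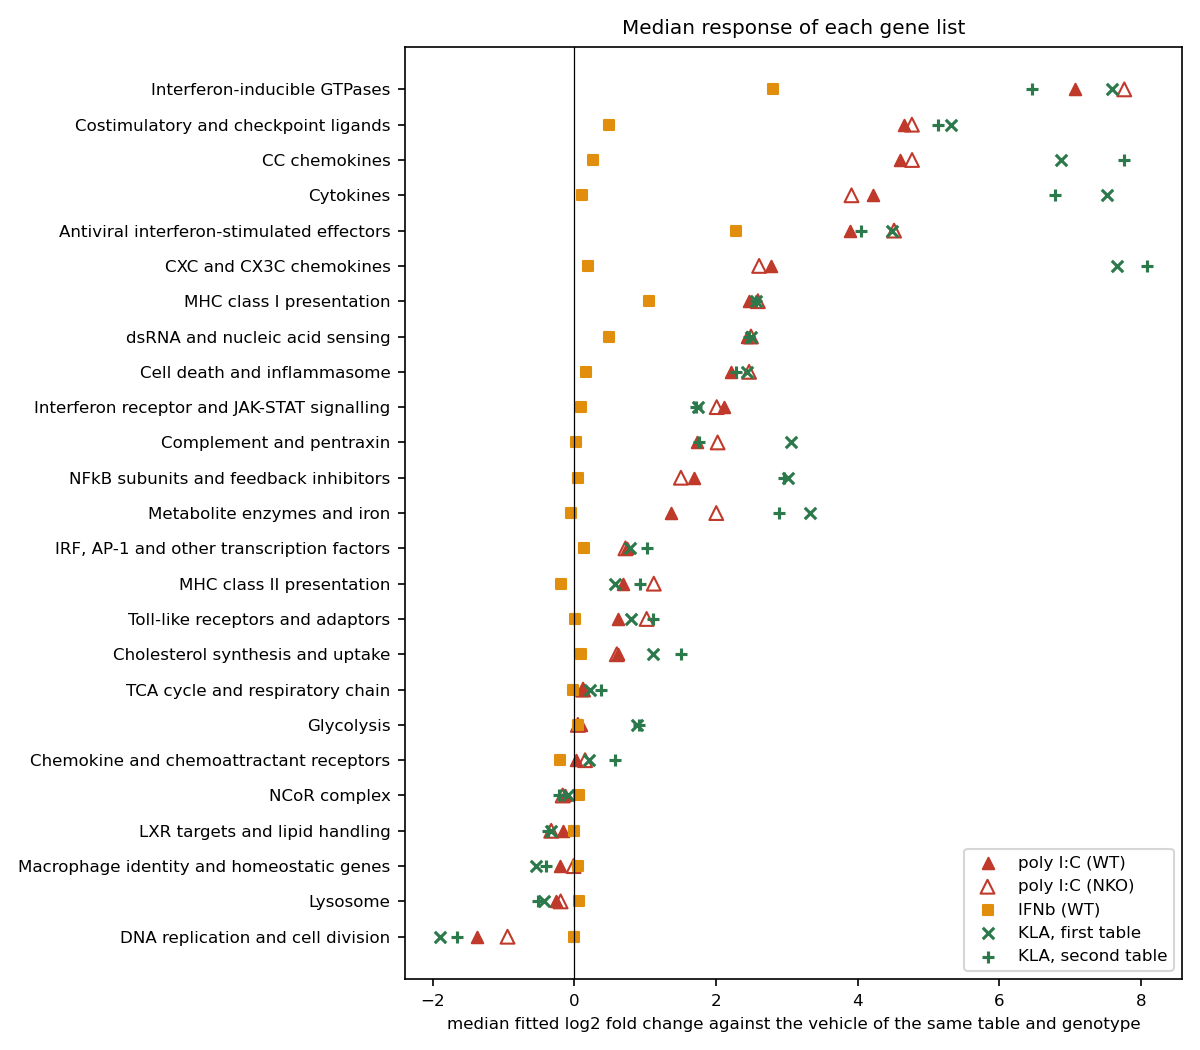
Median fitted log2 fold change (x) of each gene list against the vehicle of the same table and genotype: filled triangles poly I:C in WT, open triangles poly I:C in NKO, orange squares IFNb in WT, green crosses and plus signs KLA in the first and second further table (over the genes tested jointly). Poly I:C in WT and in NKO lie close together, IFNb lies near 0 apart from the GTPase, antiviral, MHC class I, sensing and costimulatory lists, and cytokines and chemokines lie further right under KLA.

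In macrophages without NCoR, the response to poly I:C was called for nearly as many genes. In NKO cells 2819 genes were called higher (21% of the genes tested) and 2966 lower (22.1% of the genes tested). Of the genes called in WT, 5046 were also called in the same direction in NKO, 79.7% of the WT calls and 87.2% of the NKO calls, and 1 gene was called in the opposite direction; these 2 responses share no library. The difference between the responses was called for 148 genes with the larger log2 fold change in WT (1.1% of the genes tested) and 286 with the larger in NKO (2.13% of the genes tested). The log2 fold change is taken with its sign, so genes that fell further in WT, such as Ifnar1, are among the 286. Median log2 fold changes in WT and NKO were 7.07 and 7.76 for the GTPases, 3.89 and 4.51 for the antiviral effectors, 4.21 and 3.91 for cytokines and -1.37 and -0.94 for cell division genes. Without WT_Veh replicate 2 the WT medians were 7.71 for the GTPases and 4.37 for the antiviral effectors, nearer to NKO. Ifit2 shows how far such a difference can rest on WT_Veh replicate 2: it read 11.2 and 12.5 CPM in NKO_Veh and 10500 and 11406 CPM in NKO_PolyIC, a response of 9.84 against 7.72 in WT, and the difference was -2.12 ± 0.53 with all libraries and -1.001 without WT_Veh replicate 2; its WT response was 7.10 or 8.84 without WT_Veh replicate 1 or replicate 2. Rsad2 changed by 9.47 in NKO and 8.79 in WT and its difference was not called (-0.68 ± 0.27, adjusted p = 0.157). Of the 5 genes with the largest called differences at 5 CPM or more, 4 had the larger fitted response in NKO. Without WT_Veh replicate 2, Gbp2b, Apol9b, BC147527 and Zswim5 were no longer called, and the difference for Acod1 was -1.28. The guanylate-binding protein gene Gbp2b had 0 counts in NKO_Veh and read 9.50 and 7.36 CPM in NKO_PolyIC, against 0.0688 and 0.616 CPM and then 12.3 and 11.2 CPM in WT. Apol9b likewise had 0 counts in NKO_Veh and read 14.3 and 11.4 CPM, against 0.275 and 0.342 CPM and then 22.8 and 21.5 CPM in WT. BC147527 read 0.215 and 0.057 CPM and then 26.8 and 26.7 CPM in NKO, against 0.756 and 1.50 CPM and then 31.8 and 39.7 CPM in WT. Acod1 changed by 12.44 in NKO and 9.86 in WT, a difference of -2.58 ± 0.61 (adjusted p = 0.0175). Zswim5 had the larger fitted response in WT, with 0.138 and 0 CPM and then 6.90 and 9.37 CPM in WT, against 0.287 and 0.171 CPM and then 2.11 and 2.38 CPM in NKO. Acod1 stood at 1.08 and 1.14 CPM in NKO_Veh and 2.82 and 11.1 CPM in WT_Veh, and at 6043 and 6398 CPM and 6419 and 6524 CPM under poly I:C. Ifnar1 was called lower in WT (-0.90) and read 187 and 192 CPM and then 181 and 181 CPM in NKO (-0.06), a difference of -0.83 ± 0.08 (adjusted p = 8.59e-11). Leaving out WT_Veh replicate 1 or replicate 2 gave 4.22 or 7.21 for Gbp2b and 9.19 or 11.16 for Acod1 in WT.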

How the data were processed

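RNA-seq reads were aligned by the authors with STAR to mm10 and assigned to exons with HOMER, which kept 1 transcript per gene; versions are not given in the sources used here, and the headers name no strand option, although the study's methods speak of strand-specific reads. The deposited values used here are raw counts per gene, with 1 column per library and replicates kept apart. All 4 deposited tables hold KLA libraries. The one with the NCoR genotypes (24 libraries in 12 groups of 2) and 2 further ones were used. The Pgc1b table, with its own vehicle and KLA libraries, was not used here. The WT_KLA libraries of the NCoR table entered the fit but were not compared with poly I:C. They carry another date stamp than WT_Veh.

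Counts were scaled by TMM and tested in edgeR 4.0.16 (R 4.3.3; filterByExpr, glmQLFit with robust dispersion and glmQLFTest, two-sided), with Benjamini-Hochberg adjustment over all genes tested. The fit took in all 24 libraries of the NCoR table, since groups of 2 then share an estimate of the spread; differences from KLA came from a joint fit over 3 tables. TMM factors were 1.20 and 1.19 in WT_Veh and 0.77 and 0.76 in WT_PolyIC, so poly I:C libraries were scaled up against vehicle. A call needed an adjusted p below 0.05 and a fold above 1.5, the thresholds of the study. CPM values are scaled by library size and TMM where not said otherwise. Counting intervals are exact 95% intervals, and these and the floor of 3 counts cover counting error only. On simulated counts for the WT comparison (13307 genes tested), 90 of 100 genes changed 2-fold and 97 of 100 changed 4-fold were recovered, with 2 unchanged genes called. For the WT and NKO difference and for the KLA difference of the first table, 79 and 91 of 100 were recovered in each. There 4 and 5 unchanged genes were called. Only 200 genes were changed, up and down alike, far fewer than were called in the data. The simulations therefore could not test the scaling. Alternatives included DESeq2 1.42.0, other scalings and filters, a replicate block and leaving out each library.

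The gene lists, marker lists and members were chosen with earlier results of these data known. Genes named are the 15 called higher and 15 called lower with the largest fold at 5 CPM or more in a group, the 10 with the highest mean TPM under poly I:C, in each list the 4 called members with the largest change, members that define a role or went against the list, and the 5 largest called differences between WT and NKO at 5 CPM or more; markers, family examples and a few further list members such as Gapdh were added. Promoters came from RefSeq's table for GRCm38.p6. A few genes that the rule would name are not reported here.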

Additional observations from a re-analysis of the deposited data

Results flagged for a closer look

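Among 255 genes named in the text, 49 were called for a difference between the poly I:C response of WT and that of NKO by edgeR's test of the difference itself (adjusted p from 2.55e-11 to 0.0492), 11 with the larger log2 fold change in WT and 38 with the larger in NKO. Over all 13407 genes tested, the counts were 148 (1.1%) and 286 (2.13%). Some genes were named because of this difference, so the 49 do not measure how common it was. Values are WT minus NKO on the log2 scale. Since WT_Veh replicate 2 held more interferon-stimulated RNA than replicate 1, each was also fitted without it, an alternative chosen after the data were seen; 28 were called both ways and 21 were not called without it.

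With the larger response in WT, and called both with and without WT_Veh replicate 2, were Hspa1b (1.55), Dusp2 (1.30), Ccne1 (1.16), Ppargc1b (0.95), Ccrl2 (0.94), Vcam1 (0.91), Il1rn (0.79) and Slc2a6 (0.78). These include the heat shock gene Hspa1b, the chemoattractant receptor gene Ccrl2, the coactivator gene Ppargc1b and the adhesion gene Vcam1. Zswim5 (3.41, then 2.51), Nr4a3 (2.67, then 2.48) and Kynu (2.17, then 2.56) had the larger response in WT but were not called without that library. Zswim5 had 1 to 3 counts in WT_Veh, so its value depends on the prior count.

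Genes that fell under poly I:C in WT and fell less or not at all in NKO gave negative values: Tbl1xr1 (-0.64), Cxcr4 (-0.69), Idh1 (-0.70), Abca1 (-0.77), Ifnar1 (-0.83), Ccr3 (-1.03), Ccr1 (-1.16), Cdk1 (-1.19), Slc40a1 (-1.26), Cx3cr1 (-2.05) and 1810011H11Rik (-2.21) were called both ways. They include 4 chemoattractant receptor genes, the iron exporter gene Slc40a1 and the interferon receptor gene Ifnar1. Cdc6 (-3.07) was also called both ways, but held 1 to 3 counts in WT_PolyIC. The immediate early genes Myc (-0.78) and Fos (-0.82), which were not called in WT, differed in the same direction. Genes that rose in WT and rose further in NKO, called both ways, were Tlr2 (-0.94), Clec4e (-1.65), Ifit3 (-2.01), Ifi44 (-2.09), Il10 (-2.28) and Acod1 (-2.58). Il10 and Tlr2 moved little when WT_Veh replicate 2 was left out, whereas Acod1 went to -1.28, Clec4e to -0.77, Ifit3 to -0.82 and Ifi44 to -0.98.

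The other 18 with the larger value in NKO were not called without WT_Veh replicate 2. The difference with all libraries, and then without that one, was Trim30a (-0.68, then -0.32), Nlrp3 (-0.70, then -0.49), Ciita (-0.74, then -0.49), Fcgr1 (-0.77, then -0.42), Cd40 (-0.79, then -0.39), Ddx60 (-0.81, then -0.57), Casp4 (-0.86, then -0.50), Cp (-1.07, then -0.49), Irf7 (-1.39, then -0.63), Ifit1 (-1.84, then -1.005), Ifit2 (-2.12, then -1.001), Ifit3b (-2.39, then -1.57), Fpr2 (-2.51, then -1.70) and BC147527 (-2.64, then -2.06). Each value lay nearer to 0 without the library. The same holds for genes that fell, Tlr13 (-0.61, then -0.56) and Irak3 (-0.62, then -0.55). Gbp2b (-4.63, then -2.46) and Apol9b (-4.17, then -3.99) had 0 counts in both NKO_Veh libraries, so that the size of their difference depends on the prior count. Groups of 2 libraries were too small for the test of single outlying samples.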

How the results depend on the processing

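No named gene that was called in the main fit reversed under the alternatives run, apart from Pcna (-0.01379) and Lamp2 (-0.0003302) with no scaling. Reversals were not counted for genes not called, and some of these changed sign. Cxcl3, for example, was fitted at -2.19 and at 2.76 without WT_Veh replicate 2. Counts of calls in WT ranged from 2641 to 3119 higher and from 2968 to 3425 lower with DESeq2 size factors, other filters and fits and DESeq2, against 2974 and 3357. With no scaling, an alternative chosen after the data were seen, 1762 were called higher and 6930 lower; of the named genes 13 lost their call and 19 gained one. DESeq2 gave 3099 and 3006. Dropping the fold threshold gave 4261 and 4655. Without the fold threshold the differences between WT and NKO rose to 566 with the larger log2 fold change in WT and 759 with the larger in NKO, and the genes below the KLA response to 2162 in the first table and 2343 in the second, by construction. Leaving out each library of the compared groups in turn gave 2910 to 2996 higher and 3115 to 3307 lower in WT, and 115 to 175 and 217 to 384 for the difference between WT and NKO. Without WT_Veh replicate 2, an alternative chosen after the data were seen, 5933 of the WT calls kept their direction, 398 were lost, 325 were gained and 0 turned (edgeR). Of the WT and NKO differences 101 and 193 were called both with and without it. With groups of 2, the spread of a single group is poorly known. The replicate numbers are shared between groups by name only: deviations of same-numbered libraries correlated by 0.0327 between WT_Veh and WT_PolyIC over 9650 genes. With the number as a replicate block, 2974 and 3352 genes were called in WT and 146 and 287 for the difference; no count moved by over 1.5 times under the block. Depth limits genes below about 0.275 CPM before TMM scaling, the highest level of 3 counts among the 4 libraries.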

Other observations

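Gene families outside the lists of the report were counted by gene symbol, a grouping chosen after the data were seen and so given as counts with no test; over all genes tested, 22.2% were called higher and 25% lower. Genes named Zfp, mostly zinc finger transcription factors, were called lower more often than higher, 137 and 26 of 336, with a median log2 fold change of -0.51. Zfp395 fell from 69.0 and 72.2 CPM to 4.05 and 3.97 CPM (-4.14 ± 0.13) and Zfp800 rose from 24.3 and 23.5 CPM to 251 and 259 CPM (3.41 ± 0.07). Of 31 kinesin genes (Kif), motors of which several act in mitosis, 16 were called lower and 3 higher, and Kif5c, a transport kinesin, was among the latter (2.85 ± 0.11). Of 18 genes named Rad, largely of DNA repair, 8 were called lower and the other 10 were not called. Of 24 Klhl genes, which recruit targets to ubiquitin ligases, 12 were called lower and 2 higher. Autophagy genes (Atg) gave 8 lower and 3 higher of 18, with Atg16l1 called higher (1.62 ± 0.08).

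Families with more higher calls were fewer. Of 12 Parp genes, ADP-ribosyltransferases, 8 were called higher and 3 lower (median 3.27). Of 43 Trim genes, ubiquitin ligases of which several restrict viruses, 15 were called higher and 9 lower with a median of -0.07, so that the family split: Trim30a rose from 87.3 and 136 CPM to 1765 and 1862 CPM (4.02 ± 0.15) and Trim21, an antibody receptor in the cytosol, changed by 3.42 ± 0.07, whereas Trim16 changed by -3.08 ± 0.27 and Trim47 by -2.30 ± 0.11. Of 12 Hspa genes, heat shock protein 70 chaperones, 5 were called higher and the other 7 were not called, with Hspa1b at 4.52 ± 0.24. Of 14 Psmd genes, of the proteasome lid and base, 5 were called higher and the other 9 were not called, with Psmd10 at 1.86 ± 0.09. Rab GTPase genes gave 20 higher and 10 lower of 59, with Rab20 at 2.97 ± 0.13. Ribosomal protein genes hardly took part: of 47 genes named Rpl 3 were called lower and 44 were not called, and the median over 32 genes named Rps was 0.02. With no scaling in place of TMM, the median of all genes was lower by the shift given in the report, and family medians are to be read against it. The nuclear receptor genes Nr4a1 (-4.75 ± 0.42) and Nr4a3 (3.80 ± 0.51), of one subfamily, went in opposite directions.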
